A study of Danio rerio with 4 samples.

Results

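The genes described here are the 9 platelet-derived growth factor (PDGF) ligand and receptor genes of zebrafish, pdgfaa, pdgfab, pdgfba, pdgfbb, pdgfc, pdgfd, pdgfra, pdgfrb and pdgfrl, together with EGFP, the green fluorescent protein that pdgfrb sequences drive in these fish. They were taken by name and make up 10 of the 24438 symbols in the deposited matrices. At least 1 UMI (unique molecular identifier, 1 captured transcript) in a kept cell was found for 8 of them in the mutant library, 9 in the wildtype library, 10 in the injured library and 10 in the uninjured library.

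Ventricle cells of adult zebrafish of strain AB were dissociated with collagenase and elastase, sorted for EGFP and sequenced as droplet single-cell RNA libraries, 1 library per group. The mutant library came from pdgfrb-/- fish (allele um148) of 6 months carrying Tg(pdgfrb:EGFP; cxcl12b:Citrine; fli1a:DsRed), and the wildtype library from fish of the same age and transgenes. The injured library came from fish of 18 months carrying Tg(pdgfrb:EGFP; cxcl12b:Citrine), taken 7 days after the apex of the ventricle was cut off, and the uninjured library from fish of the same age and transgenes with no amputation. Every library thus carried the EGFP and Citrine reporters, and the pairs differ from each other in age and in the DsRed transgene. The sources used here do not give the nature of the um148 change or how many fish went into a library.

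PDGF ligands are secreted dimers that bind receptor tyrosine kinases on mesenchymal cells. PDGF-A and PDGF-C act through the alpha receptor, encoded by pdgfra, while PDGF-B and PDGF-D act chiefly through the beta receptor, encoded by pdgfrb. In vertebrate vessels PDGF-B made by endothelial cells recruits mural cells, the pericytes and smooth muscle cells that carry the beta receptor, and in the zebrafish heart the beta receptor is known from mural cells and from epicardial derived cells. The product of pdgfrl resembles the outer part of a PDGF receptor and has no kinase domain.

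After filtering, 1106 cells and 2722402 UMIs were kept in the mutant library, 939 cells and 1962222 UMIs in the wildtype library, 1357 cells and 6418252 UMIs in the injured library, and 1916 cells and 7440329 UMIs in the uninjured library. Median depth was 2134 UMIs per mutant cell, 1728 per wildtype cell, 3610 per injured cell and 3256 per uninjured cell. Clusters were made without the 10 genes and the other reporters, and each was named "-like" from marker lists. The cells did not match the sort label throughout: an EGFP UMI was found in 10.2% of mutant, 18.6% of wildtype, 24.8% of injured and 17.0% of uninjured cells, and cardiomyocyte-like cells made up 83.2%, 74.1%, 48.9% and 54.6% of those libraries in the same order. Fibroblast-like and epicardium-like cells, summed as 1 pool, numbered 148 in the mutant library, 122 in the wildtype library, 235 in the injured library and 315 in the uninjured library. Mural-like cells numbered 0 in the mutant library, 92 in the wildtype library, 17 in the injured library and 18 in the uninjured library. Endothelium-like and endocardium-like cells numbered 264 and 351 in the injured and uninjured libraries but only 6 in each 6-month library. Kept cells of different libraries shared at most 2 barcodes per pair of libraries. With 1 library per group no difference below has a replicate check and no p-value is given. Intervals are at 95% and cover counting error only (Poisson for UMIs and for levels, Clopper-Pearson for shares of cells, conditional binomial for ratios). Levels are in CPM, a gene's UMIs as a rate against all UMIs of its class and library.

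**Figure D1:**
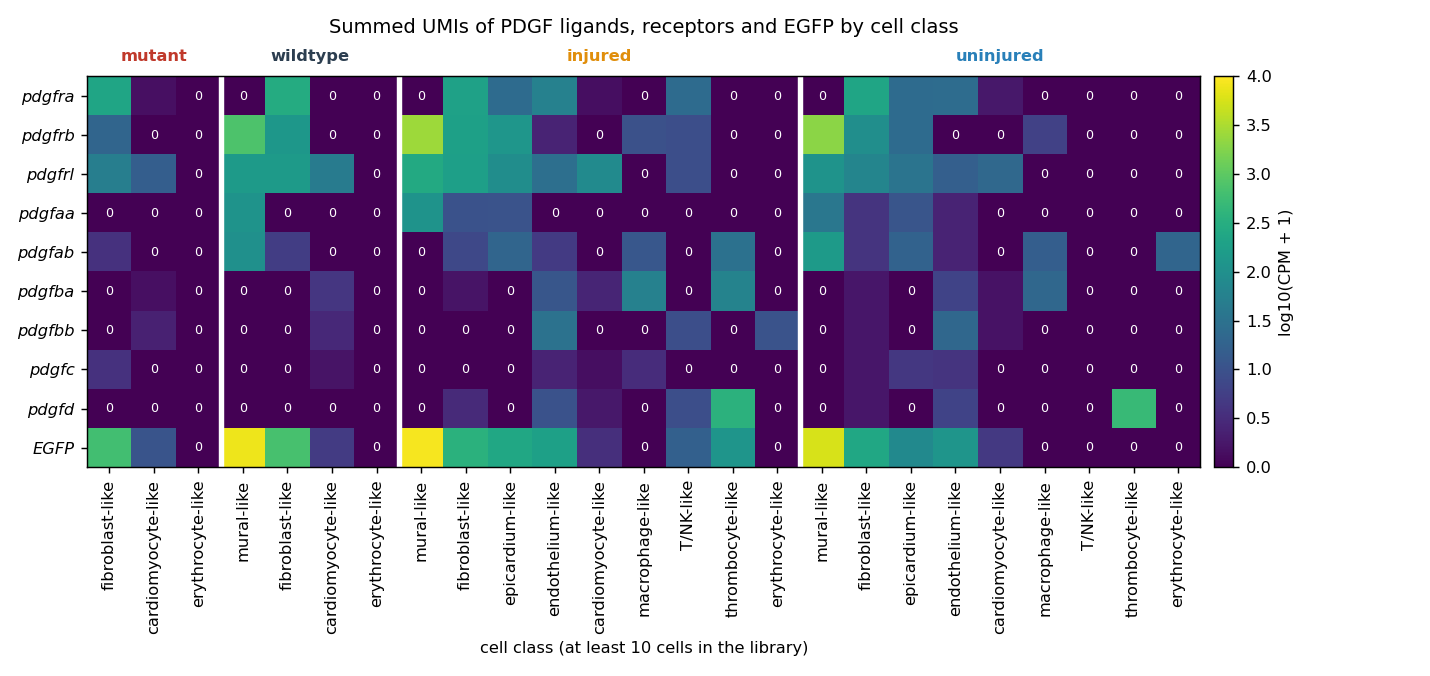
Level of each gene as log10(CPM + 1), by library and cell class with at least 10 cells; a 0 marks a class with no UMI. EGFP and pdgfrb were highest in mural-like cells, at 7990 and 771 CPM in the wildtype library, while pdgfra was at 0 in all mural-like cells.

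The receptor genes shared the fibroblast-like and epicardium-like pool and differed outside it. Of 706 pdgfrb UMIs, 69.4% lay in the fibroblast-like and epicardium-like pool and 29.0% in the far fewer mural-like cells, with 0 in cardiomyocyte-like cells of all 4 libraries. Of 873 pdgfra UMIs, 86.4% lay in fibroblast-like and epicardium-like cells, 12.1% in endothelium-like cells and 0 in mural-like cells. Of 935 pdgfrl UMIs, 48.2% lay in the fibroblast-like and epicardium-like pool and 40.4% in cardiomyocyte-like cells.

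For pdgfrb, mural-like cells held 771 CPM (614 to 956, 83 UMIs) in the wildtype library, 2606 CPM (2027 to 3298, 69 UMIs) in the injured library and 1997 CPM (1496 to 2613, 53 UMIs) in the uninjured library. At least 1 pdgfrb UMI was seen in 50% of wildtype, 70.6% of injured and 72.2% of uninjured mural-like cells, or 30.4%, 52.9% and 55.6% after each cell was thinned to 500 UMIs. The 2 libraries of 18 months rest on 17 and 18 mural-like cells, and 18 of the 69 injured UMIs came from 1 cell. Fibroblast-like and epicardium-like cells were lower, at 19.3 CPM in the mutant library, 127 CPM in the wildtype library, 182 CPM in the injured library and 81.7 CPM in the uninjured library. The beta receptor level was thus higher in mural-like cells than in the fibroblast-like and epicardium-like pool in each of the 3 libraries that held both, with intervals that did not overlap.

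Outside these classes pdgfrb was near 0. Endothelium-like cells held 2 pdgfrb UMIs in the injured library and 0 in the uninjured library, and macrophage-like cells held 4 and 3. At a floor of 3 cells, the count of 0 of 920 mutant cardiomyocyte-like cells allows a share of cells with a pdgfrb UMI of up to 0.326%, and 0 of 1047 uninjured cells allows up to 0.287%. These too limit cells with a UMI only. In a RefSeq annotation of another zebrafish assembly (GRCz12tu), pdgfrb stands next to csf1ra, a receptor gene of macrophages, and whether reads were split between these neighbours was not tested.

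For pdgfra, the alpha receptor, fibroblast-like and epicardium-like cells held 218 CPM (79 UMIs) in the mutant library, 266 CPM (65 UMIs) in the wildtype library, 172 CPM (302 UMIs) in the injured library and 189 CPM (308 UMIs) in the uninjured library. Within that pool, under the class names used, the gene lay mostly in the fibroblast-like cells, at 192 CPM in injured and 226 CPM in uninjured cells. The epicardium-like cells held 23.9 and 23.7 CPM on 5 and 7 UMIs. This split depends on the class names. Of the 873 pdgfra UMIs, 369 lay in a fibroblast-like cluster with krt91 and the epicardium marker c4b among its leading genes. At resolution 2.0 a cluster of 174 cells led by c4b was left unnamed. The epicardium-like cells of the same libraries held 124 and 23.7 CPM of pdgfrb. In fibroblast-like cells pdgfrb held 189.8 CPM in the injured and 94.6 CPM in the uninjured library, so the 2 receptors were at a like level in injured fibroblast-like cells and, on 7 UMIs each, in uninjured epicardium-like cells. No pdgfra UMI was seen in 92 wildtype, 17 injured or 18 uninjured mural-like cells, which, at a floor of 3 cells, allows shares of cells with a UMI of up to 3.26%, 17.6% and 16.7%. This limits cells with a UMI and not cells that express the gene.

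Cells with both receptors were common in the fibroblast-like and epicardium-like pool of the 18-month libraries. In the injured library 80 cells held UMIs of both, 45 held pdgfra without pdgfrb and 62 held pdgfrb without pdgfra. In the uninjured library these numbers were 63, 90 and 34. At 6 months, with fewer UMIs per cell, 2 mutant and 9 wildtype cells held both, 49 mutant and 29 wildtype cells held pdgfra without pdgfrb, and 3 mutant and 14 wildtype cells held pdgfrb without pdgfra. UMIs of the 2 receptors were therefore often found in 1 cell of the pool in the injured and uninjured libraries. Whether this was more often than the share of each gene alone would give was not tested. In mural-like cells pdgfrb was found with no pdgfra.

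A second site of pdgfra was the endothelium-like class. It held 55.3 CPM (43.4 to 69.6, 73 UMIs in 46 cells) in the injured library and 24.8 CPM (17.1 to 34.9, 33 UMIs in 28 cells) in the uninjured library. Of the 106 UMIs all but 1 lay in the larger of the 2 clusters of that class, led by spock3, aqp8a.1 and f8. Cells with a pdgfra UMI made up 17.4% of injured and 7.98% of uninjured endothelium-like cells (3.41% and 0.855% after thinning to 500 UMIs) at medians of 4431 and 3707 UMIs per cell, against 0.151% and 0.191% of cardiomyocyte-like cells and 0 of 64 and 0 of 84 macrophage-like cells. Summed fibroblast markers in the same endothelium-like cells were 1785 CPM in the injured and 645 CPM in the uninjured library, against 24954 and 13150 CPM in fibroblast-like cells. These moved in the same direction as pdgfra, and their part in it was not tested.

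The receptor-like gene pdgfrl was found in cardiomyocyte-like cells as well as in the pool. In cardiomyocyte-like cells it held 14.9 CPM (33 UMIs) in the mutant library, 44.6 CPM (69 UMIs) in the wildtype library, 79.7 CPM (199 UMIs) in the injured library and 21.6 CPM (77 UMIs) in the uninjured library. Fibroblast-like and epicardium-like cells held 49.7, 139, 172 and 60.2 CPM in the same order of libraries. Both classes thus had the same order, highest in the injured and lowest in the mutant library, although the mutant and uninjured intervals overlapped in both classes, and the wildtype and injured intervals in the pool. Fibroblast genes were low in the cardiomyocyte-like class, where the 17 fibroblast markers summed to 110 CPM in mutant, 116 CPM in wildtype, 52.8 CPM in injured and 47.1 CPM in uninjured cells, against 13150 to 30503 CPM in fibroblast-like cells. No pdgfrl UMI was seen in macrophage-like, thrombocyte-like or erythrocyte-like cells.

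The EGFP reporter, like pdgfrb, was highest in mural-like cells, and it was also found in a class with almost no pdgfrb. Of 3043 EGFP UMIs, 43.5% lay in fibroblast-like and epicardium-like cells, 40.8% in mural-like cells, 13.6% in endothelium-like cells and 1.54% in cardiomyocyte-like cells. Mural-like cells held 7990 CPM in the wildtype library, 8762 CPM in the injured library and 5653 CPM in the uninjured library, with an EGFP UMI in 98.9%, 94.1% and 94.4% of cells. The median mural-like cell held 7 EGFP UMIs in the wildtype, 11 in the injured and 6 in the uninjured library, and the highest cell held 33, 41 and 41.

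Fibroblast-like and epicardium-like cells held less EGFP, at 607 CPM (63.5% of cells) in the mutant library, 647 CPM (61.5%) in the wildtype library, 346 CPM (74.9%) in the injured library and 209 CPM (57.5%) in the uninjured library. With every cell thinned to 500 UMIs the shares were 27.7% in mutant, 36.1% in wildtype, 14.0% in injured and 12.4% in uninjured cells, so the injured library led before thinning and the wildtype library after it, as it did in CPM. Other classes held less, and whether they lack the reporter was not tested. Macrophage-like cells held 0 EGFP UMIs in 64 injured and 84 uninjured cells. Of cardiomyocyte-like cells, 1.96% of mutant, 0.718% of wildtype, 0.753% of injured and 0.764% of uninjured cells held 1 or more. Thrombocyte-like cells held EGFP in 3 of 18 injured cells (16.7%, 122 CPM on 4 UMIs) and in 0 of 10 uninjured cells. Erythrocyte-like cells held none in any library. Each share in the fibroblast-like and epicardium-like pool stood far above these.

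EGFP without pdgfrb was found in endothelium-like cells. They held 249 EGFP UMIs and 2 pdgfrb UMIs in the injured library, and 162 EGFP UMIs and 0 pdgfrb UMIs in the uninjured library. Their EGFP level was 189 CPM (166 to 214) in injured and 122 CPM (104 to 142) in uninjured cells, with a UMI in 51.1% and 33.0% of cells, or 10.6% and 6.84% after each cell was thinned to 500 UMIs. In the fibroblast-like and epicardium-like pool of these libraries 1 pdgfrb UMI came with 1.90 (1.66 to 2.19) and 2.56 (2.09 to 3.15) EGFP UMIs. In uninjured endothelium-like cells the number was at least 54.0, taken against a floor of 3 pdgfrb UMIs. The mural-like cells, with 3.36 (2.56 to 4.47) in the injured and 2.83 (2.06 to 3.95) in the uninjured library, were also well below that. Summed mural markers in endothelium-like cells were 616 CPM in the injured and 371 CPM in the uninjured library, against 25567 and 28605 CPM in mural-like cells.

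**Figure D2:**
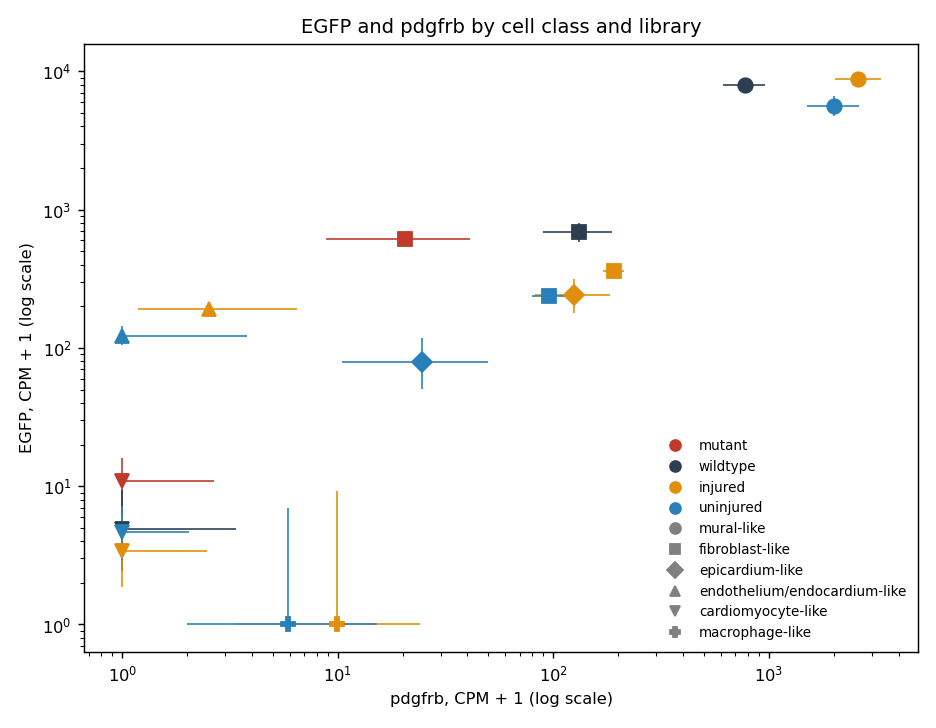
EGFP against pdgfrb, both as CPM plus 1 on log axes, for each class with at least 15 cells in a library; bars are 95% Poisson intervals. Mural-like cells sit at the upper right, between 5653 and 8762 CPM of EGFP, while endothelium-like cells sit above 100 CPM of EGFP at almost no pdgfrb, and mutant fibroblast-like cells lie left of wildtype ones at a like height.

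At 6 months the reporter ran higher for a given pdgfrb count. Wildtype mural-like cells held 10.4 (8.26 to 13.1) EGFP UMIs per pdgfrb UMI. Fibroblast-like and epicardium-like cells held 31.4 (15 to 79.1) in the mutant library on 7 pdgfrb UMIs, and 5.10 (3.45 to 7.75) in the wildtype library on 31. Age, the DsRed transgene and the library cannot be told apart here. The mutant value also carries the pdgfrb mutation, which cannot be told apart from the library either.

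Within a class, EGFP and pdgfrb were compared cell by cell. Among fibroblast-like and epicardium-like cells with a pdgfrb UMI, EGFP was seen in 60% of mutant, 69.6% of wildtype, 82.4% of injured and 60.8% of uninjured cells. Among those without one it was seen in 63.6%, 59.6%, 63.4% and 56.0%. Pearson's r over these cells was taken with each gene scaled to the UMIs of its cell. It was 0.01 in the wildtype library (122 cells), 0.19 in the injured library (235 cells) and 0.09 in the uninjured library (315 cells). These values share the library and the depth of each cell. In the mural-like class r was −0.05 in the wildtype (92 cells), −0.31 in the injured (17 cells) and −0.06 in the uninjured library (18 cells). In counts this sparse such weak values are no finding.

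**Figure D3:**
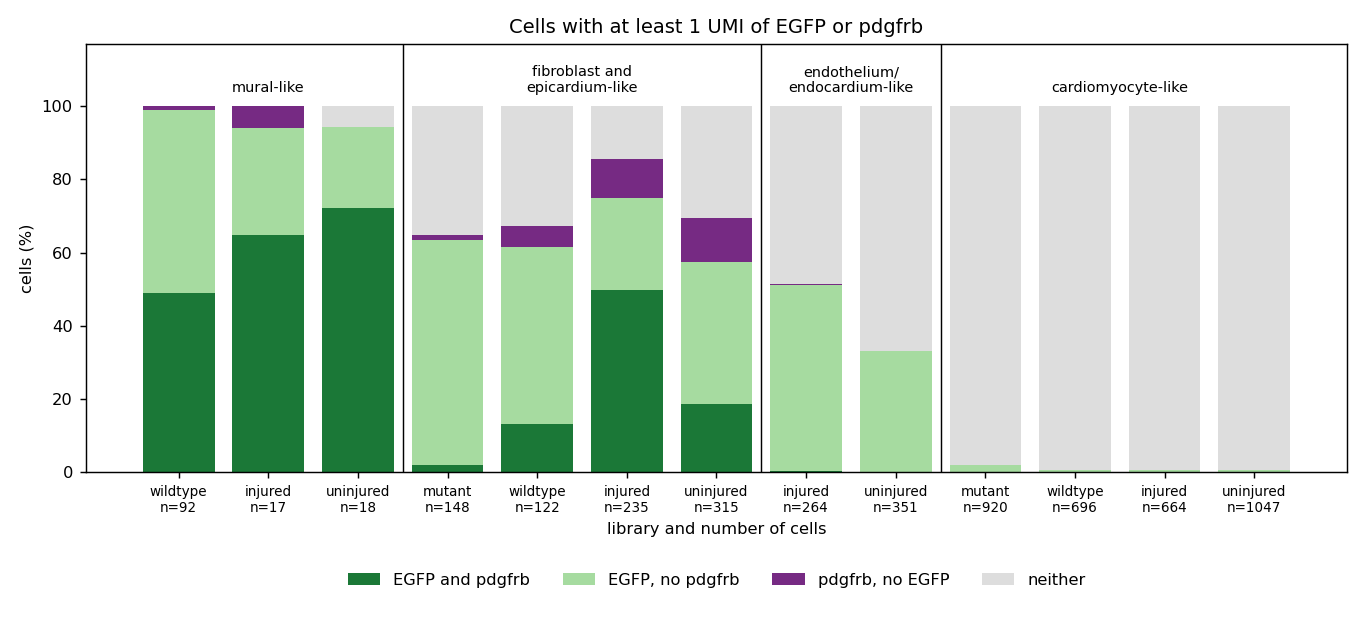
Share of cells, in percent, with UMIs of both EGFP and pdgfrb, of 1 of them or of neither, by class and library, with the number of cells under each bar. Nearly every mural-like cell held EGFP, while endothelium-like cells held EGFP in 51.1% of injured and 33.0% of uninjured cells with almost no pdgfrb.

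The other reporters were sparse. Of 227 Citrine UMIs, 90.7% lay in cardiomyocyte-like cells, the most numerous class, at 12.3 to 33.6 CPM over the 4 libraries. Mural-like cells held 9 Citrine UMIs in all, at 46.5 CPM in the wildtype, 113 CPM in the injured and 37.7 CPM in the uninjured library. DsRedEx had 0 UMIs in every library. EGFP and Citrine are near-identical coding sequences, so reads of 1 may have been counted for the other or for neither, and levels of both are uncertain. The endogenous cxcl12b had 127 UMIs in mural-like and 198 in endothelium-like cells, the endothelium-like ones split into 150 in the injured and 48 in the uninjured library. Of the endothelium-like UMIs, 197 lay in the smaller cluster of that class, of 41 cells, with 73 in the top cell. That cluster held 18 EGFP UMIs. The larger cluster, of 586 cells, held 1 cxcl12b UMI and 397 EGFP UMIs.

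The 6 ligand genes were sparse, between 12 UMIs for pdgfc and 80 UMIs for pdgfbb over all kept cells, and they were not spread evenly over the classes. The PDGF-B gene pdgfbb lay in endothelium-like cells for 68 of its 80 UMIs, and 67 of these came from 1 small cluster of 41 cells led by ncam3, lyve1a, cxcl12b and plvapb. In that cluster pdgfbb reached 464 CPM (41 UMIs in 11 of 24 cells) in the injured library and 365 CPM (26 UMIs in 7 of 17 cells) in the uninjured library. The larger endothelium-like cluster, with 586 cells, held 1 pdgfbb UMI although it held most of the class, so the pdgfbb of this class belonged to a small group of cells.

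The other PDGF-B gene, pdgfba, had 75 UMIs, 38 of them in macrophage-like cells, 21 in endothelium-like cells and 12 in cardiomyocyte-like cells. Macrophage-like cells held 56.1 CPM (36.3 to 82.8, 25 UMIs in 16 of 64 cells) in the injured library and 21.0 CPM (11.2 to 35.9, 13 UMIs in 13 of 84 cells) in the uninjured library. The small endothelium-like cluster rich in pdgfbb held 68.0 and 42.1 CPM on 6 and 3 UMIs. The 2 PDGF-B genes were thus found together in that cluster, and pdgfba without pdgfbb in macrophage-like cells, which had 0 pdgfbb UMIs.

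PDGF-D, encoded by pdgfd, had 45 UMIs, of which 19 lay in thrombocyte-like cells and 19 in endothelium-like cells. Thrombocytes are the nucleated counterpart of platelets in fish. The 18 injured thrombocyte-like cells held 366 CPM (189 to 639, 12 UMIs in 7 cells) and the 10 uninjured ones 492 CPM (198 to 1013, 7 UMIs in 4 cells), the highest pdgfd levels of any class. Summed endothelium markers in these cells were 4271 CPM in the injured and 2881 CPM in the uninjured library. In endothelium-like cells they were 12501 and 11898 CPM. The part of endothelial RNA in the pdgfd of thrombocyte-like cells was not tested. Of the 19 endothelium-like UMIs, 17 lay in the same small cluster as pdgfbb, at 113 CPM in the injured and 98.2 CPM in the uninjured library. No pdgfd UMI was seen at 6 months, where the libraries held 0 thrombocyte-like cells and 12 endothelium-like cells in all.

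The PDGF-A genes lay with the receptor-bearing cells. For pdgfaa, which 2 gene IDs of the files share and which were summed, 23 of 44 UMIs lay in the fibroblast-like and epicardium-like pool and 16 in mural-like cells. Wildtype mural-like cells held 111 CPM (57.6 to 195, 12 UMIs in 10 cells), which were all of the pdgfaa UMIs of the wildtype library. For pdgfab, 25 of 63 UMIs lay in fibroblast-like and epicardium-like cells, 15 in mural-like cells and 14 in macrophage-like cells, and wildtype mural-like cells held 102 CPM (51.0 to 183, 11 UMIs in 9 cells). Mural-like cells, which had no pdgfra UMI, thus held UMIs of both genes of its ligand PDGF-A. In injured and uninjured cells together, 16 of the 23 pdgfaa UMIs of the fibroblast-like and epicardium-like pool lay in 1 cluster, led by col12a1a, hapln1a and postnb. For pdgfc, a ligand of the alpha receptor, 6 of 12 UMIs lay in endothelium-like cells, too few to place it.

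**Figure D4:**
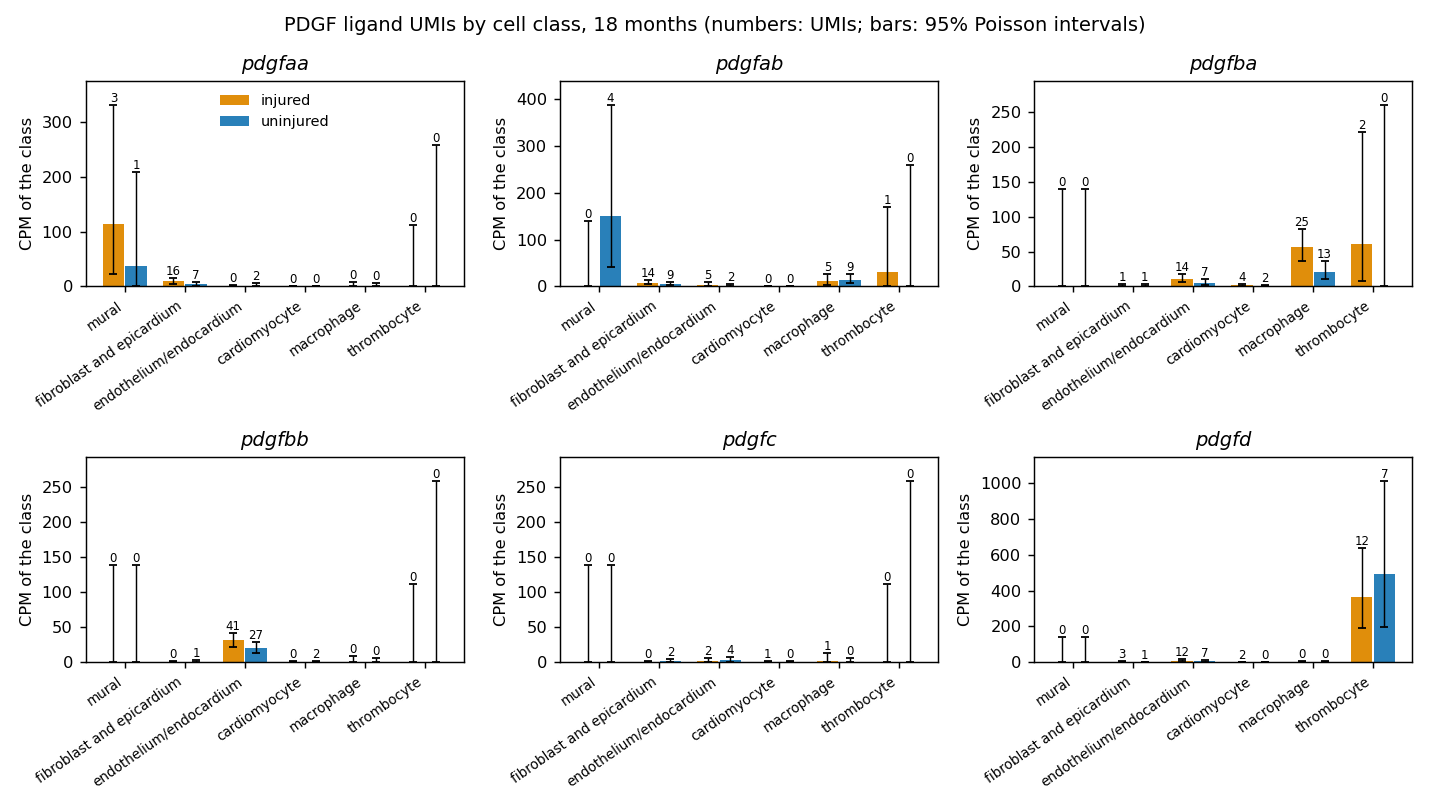
CPM of each ligand gene by cell class in the injured and uninjured libraries of 18 months, with 95% Poisson intervals and the number of UMIs above each bar. The pdgfd bars stand out in thrombocyte-like cells at 366 and 492 CPM, the pdgfba bars in macrophage-like cells at 56.1 and 21.0 CPM and the pdgfbb bars in endothelium-like cells at 31.1 and 20.3 CPM. Single or few UMIs in the small mural-like and thrombocyte-like classes also give high bars with wide intervals.

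The mutant library was compared with the wildtype library to ask how the genes stand where pdgfrb is mutated, with the targeted gene first. The mutant library held 7 pdgfrb UMIs, all in 5 fibroblast-like cells, and the wildtype library 114 UMIs. Over all kept cells that was 2.57 CPM in mutant and 58.1 CPM in wildtype cells, a log2 ratio of −4.50 (−5.84 to −3.41), or 22.6-fold lower in the mutant library. The 83 wildtype UMIs of mural-like cells have no mutant counterpart, since the mutant library held 0 mural-like cells. Without the mural-like cells the log2 ratio was −2.70. Some pdgfrb RNA was therefore present in the mutant library, at a low level.

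Among rgs5a, kcne4, notch3, acta2 and abcc9, the mural markers totalled over each library, all but abcc9 had fewer UMIs in the mutant library. These genes are on the list that named the class, so their totals restate its absence. Library totals of the other genes on that list were not taken. Over all kept cells the smooth muscle and pericyte gene rgs5a had 17 UMIs in the mutant and 203 UMIs in the wildtype library. The markers kcne4 with 67 and 751, acta2 with 20 and 108 and notch3 with 48 and 152 UMIs were also lower in the mutant library, whereas abcc9 had 10 and 9 UMIs. These totals are not scaled to depth, and the mutant library held more UMIs in all (2722402 against 1962222). Of the wildtype UMIs, 199 of rgs5a, 660 of kcne4, 97 of acta2, 125 of notch3 and 5 of abcc9 lay in the mural-like cells. What set the number of mural-like cells was not tested.

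Over all kept cells, 4 genes of the set had at least 20 UMIs in the 2 libraries of 6 months together. Of these 3 were at least 2-fold lower in the mutant library and 0 at least 2-fold higher, where 11.2% of all 6526 genes with that many UMIs were lower and 3.92% higher. These were pdgfrb, pdgfrl and EGFP. EGFP had 243 UMIs (89.3 CPM) in the mutant and 1030 UMIs (525 CPM) in the wildtype library, a log2 ratio of −2.56 (−2.76 to −2.35), and without the mural-like cells the log2 ratio was −0.04. The PDGF-A genes, with fewer UMIs, were at 0 UMIs in the mutant and 12 in the wildtype library for pdgfaa, and at 1 and 12 UMIs for pdgfab. With a floor of 3 UMIs in place of 0, pdgfaa was 5.55-fold lower, and its log2 interval ran up to −1.95. Of the 12 wildtype UMIs of pdgfaa and of pdgfab, 12 and 11 lay in mural-like cells.

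In the fibroblast-like and epicardium-like cells, which both libraries held, pdgfrb was lower in the mutant library and EGFP was close to level. Here 2 of 4 measured genes were at least 2-fold lower in the mutant library, where 13.1% of 2536 genes were, and 0 were higher, where 3.94% were. For pdgfrb there were 7 UMIs in 148 mutant cells (19.3 CPM) and 31 UMIs in 122 wildtype cells (127 CPM), a log2 ratio of −2.72 (−4.14 to −1.50). EGFP had 220 UMIs (607 CPM) in mutant and 158 UMIs (647 CPM) in wildtype cells, a log2 ratio of −0.09 (−0.39 to 0.21). Both libraries were sorted for EGFP, and the part of the sort in this ratio was not tested. The alpha receptor pdgfra had 79 UMIs (218 CPM) in mutant and 65 UMIs (266 CPM) in wildtype cells, a log2 ratio of −0.29 (−0.78 to 0.21). That interval lies within 2-fold but covers counting error only, so it does not exclude a larger difference between genotypes. The median log2 ratio of all genes measured in this class was −0.26, and under trimmed mean scaling (TMM) pdgfra stood at 0.00 and EGFP at 0.20. Thinning each cell to 500 UMIs gave −0.51 for EGFP, and −1.86 (−4.39 to 0.14) for pdgfrb, on 3 mutant and 9 wildtype UMIs.

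For pdgfrl, the receptor-like gene, fibroblast-like and epicardium-like cells held 18 UMIs (49.7 CPM) in the mutant and 34 UMIs (139 CPM) in the wildtype library, a log2 ratio of −1.49 (−2.40 to −0.62). Cardiomyocyte-like cells, where 4.85% of 4389 genes were at least 2-fold lower in the mutant library, held 33 UMIs in 920 mutant cells and 69 UMIs in 696 wildtype cells, a log2 ratio of −1.58 (−2.23 to −0.96). The lower level was thus seen in both classes. In the cardiomyocyte-like class EGFP had 22 UMIs in mutant and 6 UMIs in wildtype cells, a log2 ratio of 1.36 (0.01 to 2.95), or 0.93 (−0.29 to 2.30) with doublets kept, which is below 2-fold, where 8.77% of genes were at least 2-fold higher; 1.96% and 0.718% of cells held it, and Citrine, with 50 and 19 UMIs, had a log2 ratio of 0.88 there.

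The injured library was compared with the uninjured library to ask how the genes stand 7 days after amputation. Over all kept cells 4 of 9 genes with at least 20 UMIs were at least 2-fold higher in the injured library, against 11.8% of all 11087 genes, and none was at least 2-fold lower, against 2.28%. For pdgfrb there were 395 UMIs (61.5 CPM) in the injured and 190 UMIs (25.5 CPM) in the uninjured library, a log2 ratio of 1.27 (1.02 to 1.53). For pdgfrl there were 547 UMIs (85.2 CPM) in the injured and 212 UMIs (28.5 CPM) in the uninjured library, a log2 ratio of 1.58 (1.35 to 1.82). The other 2 were ligands, pdgfba with 46 UMIs in the injured and 23 in the uninjured library (log2 ratio 1.21, 0.46 to 2.003) and pdgfd with 30 and 15 UMIs (1.21, 0.27 to 2.21). The median log2 ratio of all genes was 0.31, and under TMM scaling, which removes that shift, pdgfrb, pdgfba and pdgfd stood at 0.95, 0.90 and 0.90, below 2-fold, while pdgfrl stood at 1.26.

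The remaining 5 genes were within 2-fold. EGFP had 1100 UMIs (171 CPM) in the injured and 670 UMIs (90.05 CPM) in the uninjured library, a log2 ratio of 0.93 (0.79 to 1.07). The alpha receptor pdgfra had 380 UMIs (59.2 CPM) in the injured and 347 UMIs (46.6 CPM) in the uninjured library, a log2 ratio of 0.34 (0.13 to 0.56), close to the median of all genes. The ligands pdgfaa, pdgfab and pdgfbb had log2 ratios of 0.76, 0.21 and 0.77, with intervals that reach 0 for pdgfaa and pdgfab and run between 0.06 and 1.49 for pdgfbb. Thinned to 500 UMIs per cell, pdgfbb had 11 UMIs in the injured and 3 UMIs in the uninjured library, a log2 ratio of 2.37 (0.45 to 4.85).

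In fibroblast-like and epicardium-like cells pdgfrb and pdgfra moved apart. Here 18.6% of 7186 genes were at least 2-fold higher in the injured library and 2.89% at least 2-fold lower, and of 6 measured genes of the set 3 were higher. For pdgfrb there were 319 UMIs in 235 injured cells (182 CPM) and 133 UMIs in 315 uninjured cells (81.7 CPM), a log2 ratio of 1.16 (0.86 to 1.46), with a UMI in 60.4% of injured and 30.8% of uninjured cells, or 8.94% and 5.71% after thinning to 500 UMIs. For pdgfra there were 302 UMIs (172 CPM) in injured and 308 UMIs (189 CPM) in uninjured cells, a log2 ratio of −0.14 (−0.37 to 0.10). For pdgfrl there were 301 UMIs (172 CPM) in injured and 98 UMIs (60.2 CPM) in uninjured cells, a log2 ratio of 1.51 (1.18 to 1.86). EGFP, with 346 CPM in injured and 209 CPM in uninjured cells, had a log2 ratio of 0.73 (0.54 to 0.93), and pdgfaa, on 16 and 7 UMIs, one of 1.09 (−0.28 to 2.61).

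The median log2 ratio of all genes in this class was 0.40, and TMM scaling took pdgfrb to 0.78 and pdgfaa to 0.71, below 2-fold, EGFP to 0.35 and pdgfra to −0.51, with pdgfrl at 1.14. Different clusters held most of the pool in the 2 libraries. A cluster led by col12a1a, hapln1a and postnb, genes of the extracellular matrix, held 120 injured and 90 uninjured cells, and a cluster with krt91, c4b and ccl25b among its leading genes held 91 injured and 193 uninjured cells. In the matrix-rich cluster alone the log2 ratio was 0.75 for pdgfrb, 0.14 for EGFP, −0.49 for pdgfra and 0.95 for pdgfrl, and in the other cluster EGFP stood at 0.98 and pdgfra at 0.22. In that other cluster pdgfrb had 155 CPM in injured and 82.1 CPM in uninjured cells, a log2 ratio of 0.91. The pdgfrb ratio was thus above 0 but below 2-fold in each of these fibroblast-like clusters alone, and with every cell of the pool thinned to 500 UMIs it was 0.69. The epicardium-like cells, another cluster of the pool, differed by more than 2-fold. There 23 injured cells held 26 pdgfrb UMIs (124 CPM) and 26 uninjured cells held 7 (23.7 CPM).

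**Figure D5:**
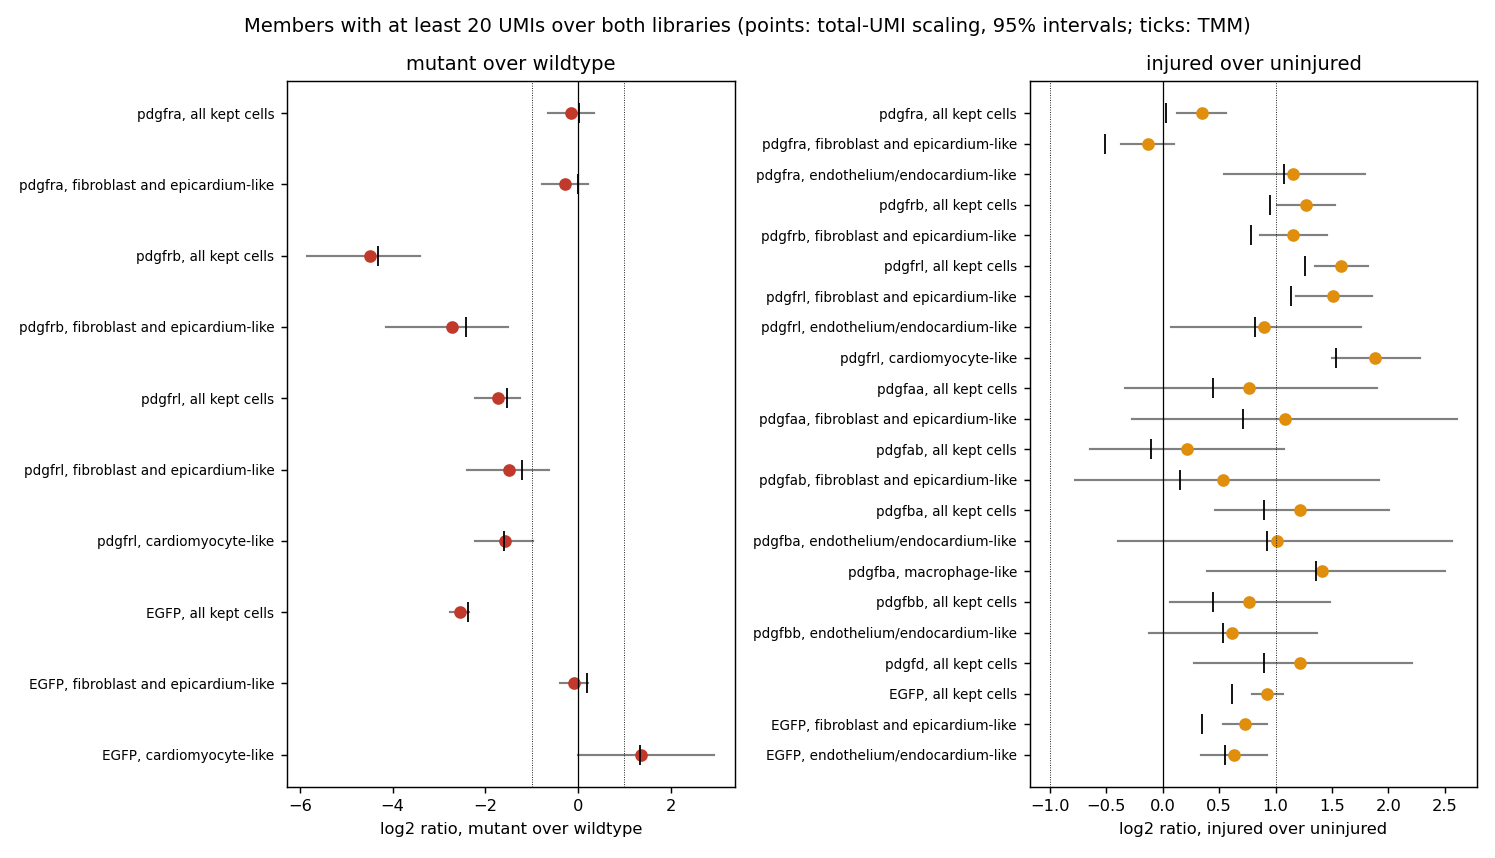
Log2 ratio of each gene with at least 20 UMIs over both libraries, mutant over wildtype at left and injured over uninjured at right, for all kept cells and for classes; points are scaled to total UMIs with 95% counting intervals, ticks are the same ratio under TMM scaling, and dotted lines mark 2-fold. In the fibroblast-like and epicardium-like cells pdgfrb stands at −2.72 for mutant over wildtype while EGFP, for which both libraries were sorted, stands at −0.09.

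Other classes at 18 months gave further differences. In endothelium-like cells, where 6.31% of 6343 genes were at least 2-fold higher in the injured library and 9.3% differed 2-fold in either direction, pdgfra had 73 UMIs in injured and 33 UMIs in uninjured cells, a log2 ratio of 1.16 (0.54 to 1.80), and pdgfba, on 14 and 7 UMIs, one of 1.01 (−0.39 to 2.56) that TMM scaling took to 0.93. EGFP, pdgfrl and pdgfbb had log2 ratios of 0.63, 0.90 and 0.61 there. In macrophage-like cells, where 5.62% of 3791 genes were at least 2-fold higher and 5.78% at least 2-fold lower, pdgfba had a log2 ratio of 1.42 (0.39 to 2.51), and 0.94 with doublets kept, below 2-fold. In cardiomyocyte-like cells, where 13.1% of 5024 genes were at least 2-fold higher and 1.99% at least 2-fold lower, pdgfrl had 199 UMIs in 664 injured cells and 77 UMIs in 1047 uninjured cells, a log2 ratio of 1.88 (1.496 to 2.28), and 1.82 without the cell with most UMIs in each library, which held 18 injured UMIs. At least 1 pdgfrl UMI was seen in 16.3% of injured and 4.97% of uninjured cardiomyocyte-like cells, or 3.31% and 0.478% after thinning. Summed mural markers in these cells were 200.2 CPM in the injured and 63.4 CPM in the uninjured library, and summed fibroblast markers 52.8 and 47.1 CPM. The part of cells or RNA of those types in the pdgfrl difference was not tested.

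Genes that act with the receptors were read from 5 lists. These were chosen with earlier results of these data known, so the shares of their members are a description and not a test. The lists have 101 members, all found in the files: ligand processing and extracellular partners, receptor adaptors and kinases, brakes on receptor signalling, immediate early and ETS target genes, and related class III receptors. In the fibroblast-like and epicardium-like pool 36 of them were measured, of which 14 were at least 2-fold lower in the mutant library (38.9%, against 13.1% of all genes) and 0 higher (against 3.94%). Their median log2 ratio was −0.79, against −0.26 for all genes. Immediate early and ETS genes, transcription factors that receptor signals switch on, gave 8 of these out of 16 measured. Examples are fosl1a, a Fos family gene, with 118 UMIs in mutant and 310 UMIs in wildtype cells (log2 ratio −1.96), junbb, a Jun family gene, with 522 and 1073 UMIs (−1.61), and egr3 with 9 and 35 UMIs (−2.53). Brakes gave 4 of 11, among them the MAP kinase phosphatase genes dusp5 with 7 UMIs in mutant and 49 UMIs in wildtype cells (−3.38) and dusp2 with 58 and 179 UMIs (−2.19). Adaptors and kinases gave 2 of 6, among them pik3r3b, a regulatory subunit of PI3 kinase, with 10 UMIs in mutant and 43 UMIs in wildtype cells (−2.67). Ligand processing genes gave 0 of 3, with sparc, a matrix protein that binds PDGF, at −0.70, and no class III receptor was measured.

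Immediate early genes are also known to rise when tissue is dissociated. The most abundant of them differed less, with fosab at 6460 CPM in mutant and 12293 CPM in wildtype cells (log2 ratio −0.93) and jun at 5036 and 7558 CPM (−0.59). In cardiomyocyte-like cells of the same 2 libraries 31 list members were measured. In the mutant library 5 were higher (16.1%, against 8.77% of all genes) and 2 lower (6.45%, against 4.85%). Of 11 immediate early and ETS genes there, 1 was higher, fosl2, and 0 lower. The parts of dissociation and of the receptor in these differences were not tested. With 1 library per group the 2 cannot be told apart. Over all kept cells 20 of 59 measured members were at least 2-fold lower in the mutant library (33.9%, against 11.2% of all genes), a comparison in which the 92 mural-like cells are all on the wildtype side. They included the adaptor genes nck2b (15 UMIs in mutant and 76 UMIs in wildtype cells, log2 ratio −2.81) and shc1 (9 and 30 UMIs, −2.21) and the brake spry2 (20 and 72 UMIs, −2.32), and 1 was higher (1.69%, against 3.92% of all genes), the kinase gene raf1b (26 and 7 UMIs, 1.42).

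In the injured library the same lists gave few called genes outside the cardiomyocyte-like class. In the fibroblast-like and epicardium-like pool 70 members were measured, of which 4 were at least 2-fold higher (5.71%, against 18.6% of all genes) and 1 lower (1.43%, against 2.89%). Their median log2 ratio was 0.24, against 0.40 for all genes, and under TMM scaling 5 were lower. The higher ones were plat, a protease that activates PDGF-C (22 UMIs in injured and 9 UMIs in uninjured cells, log2 ratio 1.18), the kinase gene src (31 and 11 UMIs, 1.39), and 2 genes of proteins that switch Ras off, rasa1a (16 and 5 UMIs, 1.57) and nf1a (26 and 5 UMIs, 2.27). The lower one was myca, with 31 UMIs in injured and 60 UMIs in uninjured cells (−1.06). The brake spry4 had 499 UMIs in injured and 838 UMIs in uninjured cells, a log2 ratio of −0.85.

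Over all kept cells 5 of 85 members were higher (5.88%, against 11.8% of all genes) and 2 lower (2.35%, against 2.28%) in the injured library, and under TMM scaling 0 were higher. The higher ones included sparc (6396 UMIs in injured and 3567 UMIs in uninjured cells, log2 ratio 1.06) and furina, a protease that matures PDGF precursors (74 and 38 UMIs, 1.17), and the lower ones csf1ra (11 and 30 UMIs, −1.23) and ptprja (8 and 20 UMIs, −1.11). Both sparc and furina were also higher in injured endothelium-like cells, with log2 ratios of 1.45 and 1.07, where TMM scaling took furina to 0.98, below 2-fold. In that class 3 of 65 measured members were higher (4.62%, against 6.31% of all genes) and 1 lower (1.54%, against 3% of all genes). In cardiomyocyte-like cells 16 of 44 members were higher (36.4%, against 13.1% of all genes) and 0 lower (against 1.99%). Their median log2 ratio was 0.70, against 0.27 for all genes, or 0.35 against −0.07 under TMM scaling. The higher ones included fosb (229 UMIs in 28 injured and 53 UMIs in 12 uninjured cells, log2 ratio 2.62), dusp5 (47 and 16 UMIs, 2.07) and stat3 (23 and 5 UMIs, 2.71). The top cell held 38 fosb UMIs. Under TMM scaling fosb, dusp5 and stat3 stayed past 2-fold at 2.28, 1.72 and 2.37, whereas sparc went from 1.17 to 0.83, below 2-fold. The cardiomyocyte-like cells held 0 pdgfrb UMIs in both libraries and 1 and 3 pdgfra UMIs, and the cause of their differences was not tested.

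The genes with a pattern most like each receptor were ranked by Pearson's r of log2(CPM + 10) over 24 sums of a class in a library, among 7036 genes with at least 100 UMIs, as a description of points that share libraries and clusters. Most like pdgfrb were itga9 (r = 0.96), eva1a (0.94), adamts9 (0.94), tagln (0.93), gng13b (0.93) and notch3 (0.93). Of these tagln and notch3 are mural marker genes of the lists used to name the classes, and EGFP stood at rank 31 with r = 0.89. Most like pdgfra were tmem198b (0.99), the fibroblast growth factor receptor gene fgfr4 (0.98) and the netrin gene ntn1a (0.97). The r between the 2 receptors was 0.20. Most like pdgfrl were C25H11orf96 (0.93), eml1 (0.92) and tmem47 (0.91), and most like EGFP were ppfibp1b (0.97), dclk1a (0.97) and lpar1 (0.95). With sums of at least 30 cells, which leaves out the mural-like cells of 18 months, none of the 6 genes named for pdgfrb stayed among its first 6.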

How the data were processed

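Gene-by-barcode matrices of 4 droplet single-cell RNA libraries were used. They hold counts of UMIs per gene as the authors deposited them. Per the file headers, Cell Ranger 4.0.0 wrote the matrices. The submitters' processing notes name GRCz11 and Seurat, and no step for Seurat is given. Features that share a symbol were summed (25110 features, 24438 symbols). A barcode was kept with 200 or more genes and no more than 25% of its UMIs mitochondrial. Scrublet's own threshold called 0, 1, 3 and 4 doublets (mutant, wildtype, injured, uninjured), so the highest scores, 0.8% per 1000 barcodes, were left out instead: 13, 10, 35 and 94. The 5318 kept cells were clustered together with scanpy 1.11.5 (30 principal components, 15 neighbours, Leiden resolution 1.0) into 21 clusters, named where the best of 12 marker lists passed fixed minimums.

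UMIs were summed per class and library and scaled to total UMIs. Levels have exact Poisson, shares Clopper-Pearson and ratios conditional binomial 95% intervals, which cover counting error only. A gene was called past 2-fold with at least 20 UMIs over both libraries, and bounds against 0 used 3 UMIs. TMM factors came from edgeR 4.0.16 in R 4.3.3. No test compares conditions. The ratio and interval steps were tested on simulated data.

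The members and lists were chosen with earlier results of these data known. Of each pathway list, up to 3 members past 2-fold in each direction with the interval bound farthest from no difference, and the 2 with most UMIs, could be named, and for pattern likeness the first 6 genes for pdgfrb and 3 for the others. Alternatives were TMM, thinning to 500 UMIs, no mitochondrial filter, doublets kept, other clusterings and leaving out the top cell. Leaving out mural-like cells and single clusters was added after the data were seen. A gene of the pathway lists that could be named is not reported here.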

Additional observations from a re-analysis of the deposited data

Results flagged for a closer look

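Barcodes that failed the filters or were left out as doublets, which no comparison uses, still held UMIs of the set. They held 13 EGFP UMIs in the mutant library (4 barcodes), 35 in the wildtype library (5 barcodes), 132 in the injured library (24 barcodes) and 86 in the uninjured library (44 barcodes). For pdgfrb there were 42 UMIs in the injured library and 30 in the uninjured library, and for pdgfra 23 and 49. The median mitochondrial share of these barcodes was 72.4% in the mutant, 87.3% in the wildtype, 97.1% in the injured and 96.9% in the uninjured library. Their EGFP level was below that of the kept cells in every library, at 35.6 against 89.3 CPM in the mutant, 116 against 525 CPM in the wildtype, 47.0 against 171 CPM in the injured and 16.1 against 90.05 CPM in the uninjured library.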

How the results depend on the processing

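Of 222 alternative log2 ratios of the set, 194 stayed within the counting interval of the reported ratio. In 9 the sign changed, in each for a ratio within 2-fold of no difference (pdgfra, pdgfab or EGFP). The largest of these was pdgfra, injured over uninjured in the fibroblast-like and epicardium-like pool, at 0.22 in the cluster with krt91 and c4b alone. Mutant over wildtype, all kept cells, leaving out mural-like cells gave −2.70 for pdgfrb and −0.038 for EGFP, and thinning to 500 UMIs per cell gave −3.48 for EGFP and −0.51 for EGFP in the pool. Injured over uninjured, all kept cells, pdgfrb was 0.95 under TMM and 0.83 thinned, and EGFP 0.61 under TMM. In the pool pdgfrb was 0.78 under TMM, 0.69 thinned, 1.48 with the pair of libraries clustered alone and 0.75 in the postnb-rich cluster. The pair clustered alone gave a different pool, since a cluster led by dhrs3a and c4b, with 73 injured and 74 uninjured cells, was left unnamed. EGFP in the pool was 0.35 under TMM, 0.42 thinned, 0.98 in the krt91 and c4b cluster and 0.14 in the postnb-rich cluster. The cause was not tested. At a 1.5-fold threshold, list genes lower in the mutant library numbered 37 in all kept cells and 24 in the pool, and those higher 4 and 1; in the injured library 22 and 18 were higher and 4 and 6 lower. With 1 UMI in each library as the minimum, 5 and 2 were higher in the mutant library, and 8 and 11 higher and 4 and 3 lower in the injured one. Under TMM 2 and 1 were higher in the mutant library. Shares of all genes were taken only at 2-fold with at least 20 UMIs and total-UMI scaling. List counts at the other settings therefore cannot be set against all genes.

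No paired analysis was possible because each group has 1 library. Depth limits the ligand genes, none of which passed 80 UMIs over all kept cells, and the mural-like cells of 18 months.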
